A study of Drosophila melanogaster with 2 samples.

Results

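Described here are the cuticular protein genes of Drosophila melanogaster named Cpr, Lcp (larval cuticle protein), Pcp (pupal cuticle protein) and Edg (ecdysone-dependent gene), and the regions recovered with Taiman near their transcription start sites (TSSs). Members were chosen by gene symbol among the protein-coding genes on the main chromosome arms. The symbol rule used no measured value, though the group was chosen with earlier results of these data known. The rule gave 89 genes of 13945, made up of 70 Cpr genes, 15 Lcp genes, 3 Edg genes and Pcp. Symbols set the limits of the group, so related cuticle genes with other names, such as the Ccp84A genes, were counted in a list of their own.

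Larval and pupal cuticle is a layered material of chitin fibres and proteins that the epidermis secretes anew at each moult. Most Cpr, Lcp, Pcp and Edg products carry the Rebers and Riddiford sequence, which binds chitin, and different members are used in larval, pupal and adult cuticle. Their transcription follows the pulses of the steroid ecdysone, largely through the transcription factors that the ecdysone receptor switches on and off in turn. Taiman, the product of tai, is a coactivator of that receptor and also a partner of the juvenile hormone receptor Methoprene-tolerant.

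Chromatin immunoprecipitation and sequencing (ChIP-seq) was performed with an anti-GFP antibody on larvae of the third instar at the wandering stage, whole animals with the sexes pooled, from a transgenic line in which a C-terminal GFP is fused to tai. The study had 1 group with 2 biological replicates, numbered 1 and 3, each from its own biosample, and the larvae's age is listed as unknown. The promoter that drives the fusion and the state of the endogenous tai gene are not stated in the labels, and no untagged line or second stage was analysed here. In whole larvae the epidermis supplies a part of the chromatin, so binding in few cells and weak binding in many cannot be told apart.

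The promoters of 4 members with a pooled summit within 250 bp of the TSS are shown first, as examples of regions close to a start site. Each run is the 300 bases from 250 before to 50 after the TSS, 5′ to 3′ on the gene's strand, read from the RefSeq copy of dm6 at the TSS of the Ensembl annotation. The Cpr67B window is chr3L:9404547-9404846 (plus strand), that of Cpr35B chr2L:14425140-14425439 (minus strand), that of Lcp65Ae chr3L:6138069-6138368 (minus strand) and that of Cpr67Fa2 chr3L:10891464-10891763 (plus strand). Edg84A (chr3R:6684195-6684494, plus strand) is added as the member with the AAGGTCA letters, the core of the site bound by the nuclear receptor FTZ-F1, for which Edg84A is a textbook target in prepupae. Capitals mark the motif letters searched for, of which TATAAA began 47 bp before the TSS in Cpr35B, 40 bp before it in Lcp65Ae and 32 bp before it in Cpr67Fa2 and in Edg84A. The Cpr67B window held none of the letters searched, and in Edg84A the TGACCTT in capitals is AAGGTCA on the opposite strand.
Cpr67B: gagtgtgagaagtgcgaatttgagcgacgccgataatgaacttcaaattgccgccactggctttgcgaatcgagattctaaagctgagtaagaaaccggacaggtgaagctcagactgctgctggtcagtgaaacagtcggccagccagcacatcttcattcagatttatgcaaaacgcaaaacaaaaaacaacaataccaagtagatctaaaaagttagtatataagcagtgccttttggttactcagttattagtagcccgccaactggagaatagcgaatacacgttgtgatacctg
Cpr35B: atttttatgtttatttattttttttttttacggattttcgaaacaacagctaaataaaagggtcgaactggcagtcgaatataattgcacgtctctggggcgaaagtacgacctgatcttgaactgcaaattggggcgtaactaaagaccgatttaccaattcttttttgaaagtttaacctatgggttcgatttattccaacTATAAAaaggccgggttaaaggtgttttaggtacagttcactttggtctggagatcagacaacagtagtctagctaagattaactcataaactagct
Lcp65Ae: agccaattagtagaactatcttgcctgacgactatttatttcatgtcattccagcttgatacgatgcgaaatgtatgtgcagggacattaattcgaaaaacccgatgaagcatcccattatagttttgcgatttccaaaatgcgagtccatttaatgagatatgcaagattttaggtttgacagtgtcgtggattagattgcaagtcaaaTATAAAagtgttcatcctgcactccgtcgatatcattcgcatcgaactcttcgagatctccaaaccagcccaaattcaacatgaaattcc
Cpr67Fa2: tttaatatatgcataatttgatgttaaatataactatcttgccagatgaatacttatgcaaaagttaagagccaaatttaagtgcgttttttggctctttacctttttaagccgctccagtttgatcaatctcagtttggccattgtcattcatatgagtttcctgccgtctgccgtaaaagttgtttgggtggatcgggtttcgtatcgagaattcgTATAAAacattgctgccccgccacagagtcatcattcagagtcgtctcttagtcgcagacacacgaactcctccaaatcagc
Edg84A: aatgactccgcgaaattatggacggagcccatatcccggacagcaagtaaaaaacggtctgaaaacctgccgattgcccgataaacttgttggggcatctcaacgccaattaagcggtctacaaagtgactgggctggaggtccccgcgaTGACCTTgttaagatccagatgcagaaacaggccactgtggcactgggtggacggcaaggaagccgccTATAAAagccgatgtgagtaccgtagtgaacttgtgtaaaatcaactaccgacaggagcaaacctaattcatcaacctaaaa

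Lcp65Ab1 and Lcp65Ab2 are shown as an example of near-identical copies among the members. Their 300-base promoters matched at 297 positions (99%) after a shift of 3 bp between the annotated TSSs. Around the start sites the 100 bases of Lcp65Ab1 (chr3L:6149498-6149597, plus strand) and of Lcp65Ab2 (chr3L:6146627-6146726, plus strand) did not differ at any position, so no base is in capitals.
Lcp65Ab1: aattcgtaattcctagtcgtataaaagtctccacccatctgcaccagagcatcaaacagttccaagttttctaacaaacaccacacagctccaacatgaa
Lcp65Ab2: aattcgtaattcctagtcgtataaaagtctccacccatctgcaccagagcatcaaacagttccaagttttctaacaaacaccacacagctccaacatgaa

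The deposited lists give an interval, a summit and a signal for each region. The pooled list held 29974 regions on the arms, the replicate 1 list 29973 and the replicate 3 list 29976, peaks and background regions together. A further list, which the authors thresholded by irreproducible discovery rate (IDR), had 2567 regions on the arms. These were the strongest of the pooled list, with signals of 65.2 or more. A gene was counted for a list that placed a summit at most 1000 bp from one of its start sites.

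No cuticular protein gene carried an IDR region at its promoter, while many carried a weaker region. The count in the IDR list was 0 of 89, with a 95% Clopper-Pearson interval of 0 to 4.06%, against 7.91% of all protein-coding genes. In the pooled list 35 members (39.3%, interval 29.1 to 50.3%) had a summit, against 28.2% of all genes. All such intervals treat genes as independent, whereas neighbouring members can share a summit, so they may be too narrow. Replicate 1 also gave 35 members (39.3%), against 31.3% of all genes, and replicate 3 gave 34 (38.2%, interval 28.1 to 49.1%), against 29.8%. Both replicates listed a summit for 25 members (28.1%, interval 19.1 to 38.6%), and the background of 22.7% lay inside that interval. The pooled list and both replicates together held 22 members (24.7%), against 21.0% of all genes. At least 1 of these 3 lists held 46 members (51.7%), against 39.2% of all genes, and 43 members had no summit in any of them.

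The higher share in the pooled list depended on how far from the TSS a summit could lie and on how strong it had to be. Within 500 bp the pooled count was 16 of 89 (18.0%, interval 10.6 to 27.5%), below the 21.9% of all genes. Among the pooled regions above the median signal, 19 members (21.3%, interval 13.4 to 31.3%) had a summit within 1000 bp, close to the 20.4% of all genes. Neither share was separated from the background by its interval.

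Gene structure differed between the members and all genes, and its part in these shares was not tested. Members were short, with a median length of 875 bp against 2166 bp for all protein-coding genes, and 79 of 89 (88.8%) had 1 annotated TSS against 73.5% of all genes. Among genes with 1 TSS, 0 of 79 members (interval 0 to 4.56%) had an IDR summit against 4.94% of all such genes. A pooled summit was found for 31 of them (39.2%, interval 28.4 to 50.9%) against 23.9%. Among genes with 1 TSS and a length of 2000 bp or less, 0 of 68 members had an IDR summit against 3.54%. A pooled summit was found for 26 of them (38.2%, interval 26.7 to 50.8%) against 23.3%. The IDR interval for those 68 members reached 5.28%, which includes the background.

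**Figure D1:**
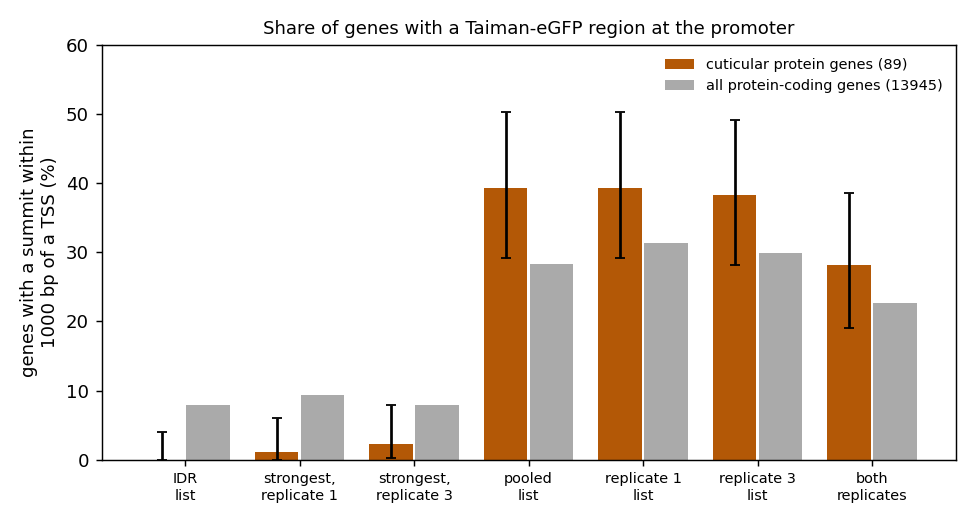
Share of genes (%, vertical axis) with a summit within 1000 bp of a TSS in each list, for the 89 cuticular protein genes (orange, with 95% Clopper-Pearson intervals, which cover counting error only) and for all 13945 protein-coding genes (grey). The members stand at 0 in the IDR list and at 39.3% in the pooled list, where all genes stand at 7.91% and 28.2%.

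Few members were among the strongest regions of either replicate. Among the 2567 strongest regions of replicate 1, 1 member had a summit, Cpr49Ac at rank 2237, against 9.39% of all genes. Among as many of replicate 3, 2 members had one, the neighbours Lcp2 and Lcp3, which share a single summit at rank 1984, against 7.87% of all genes. For the members with a pooled summit, the strongest had a median signal of 35.1 (range 27.4 to 59.9), against a median of 44.9 over the 3939 genes with one. The best rank in the pooled list was 3183, that of Cpr47Ec, and the median rank was 14084 against 7179.

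Summits of the members also lay farther from the start site than the median over all genes. The median distance of the strongest pooled summit was 664 bp, against 333 bp over all genes with one. It lay within 250 bp for 7 of 35 members (20%), against 39.5% of all genes. In replicate 1 the median distances were 718 and 325 bp, and in replicate 3 they were 497.5 and 343 bp, so the same order was seen in each replicate. Of the 35 pooled summits 18 lay upstream of the TSS and 17 downstream, whereas over all genes 2641 lay upstream and 1298 downstream. In replicate 1 the members had 16 upstream and 19 downstream, against 3017 and 1351 over all genes. In replicate 3 they had 22 and 12, against 2662 and 1499, so the difference in side was not seen there.

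The 35 members shared 33 distinct pooled regions, of which 23 (69.7%) had an intergenic summit, against 44.3% of the strongest regions over all genes with one. Another 5 lay in a UTR, 4 in an intron and 1 in coding sequence. The nearest protein-coding TSS was the member's own for 32 of 35 summits and that of another member for the remaining 3. The limit of 1000 bp favours a gene's own TSS by construction. Counted for the nearest TSS only, pooled summits gave 33 members (37.1%) in place of 35. Over all genes they gave 3637 (26.1%) in place of 3939. Members' pooled summits were thus mostly between genes, and none was nearer to the TSS of a gene outside the group. The summit counted for Cpr67Fb, 727 bp downstream of its TSS, nonetheless lay in a UTR of Aps.

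**Figure D2:**
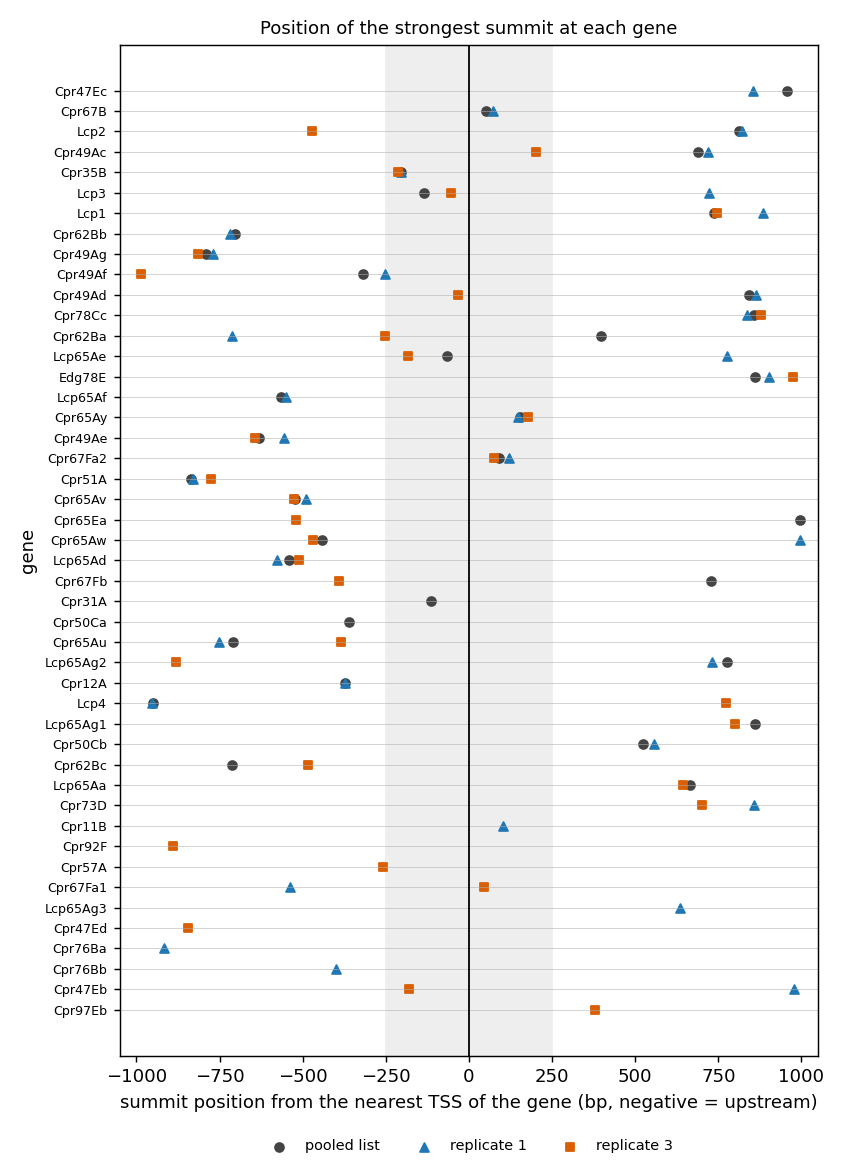
Position of the strongest summit within 1000 bp of the nearest TSS (bp, horizontal axis, negative is upstream) for the 46 members with a summit in the pooled list (circles), replicate 1 (triangles) or replicate 3 (squares), ordered by pooled signal. The grey band spans 250 bp on either side of the TSS and holds 7 of the 35 pooled summits.

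In the pooled list 10 of 15 Lcp genes (66.7%) and 24 of 70 Cpr genes (34.3%) had a summit, beside 28.2% of all genes. Lcp1, Lcp2, Lcp3 and Lcp4 encode the major cuticle proteins of larvae in the third instar and lie together on 2R between 8430115 and 8438495. All 4 had a summit in all 3 lists. At Lcp2 the signal was 51.7 in the pooled list, 36.3 in replicate 1 and 35.1 in replicate 3. The pooled and replicate 1 summits were 812 and 822 bp downstream of a TSS, past the end of the short gene, and the replicate 3 summit was 472 bp upstream, so the replicates gave different strongest positions. At Lcp3 the signals were 49.1, 19.6 and 35.1, with the pooled summit 134 bp upstream of the TSS. The replicate 3 summit at Lcp3, 53 bp upstream, is the one shared with Lcp2. At Lcp1 the signals were 48.2, 31.9 and 17.7, with summits 737, 884 and 747 bp downstream. Lcp4 was weaker, with signals of 29.1, 21.5 and 17.2. Signals are read only within a list, since each list has a scale of its own.

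The Lcp65A genes are another set of larval cuticle genes, 10 genes interleaved with 7 Cpr65A genes between 6130386 and 6161589 on 3L. Of these 10, 6 had a pooled summit and 3 had one in all 3 lists. Lcp65Ae had the strongest, with a signal of 37.2 in the pooled list at 66 bp upstream, 26.7 in replicate 1 at 776 bp downstream and 26.03 in replicate 3 at 182 bp upstream. Its replicate 1 summit is the one counted 551 bp upstream of the neighbour Lcp65Af, which had signals of 36.0 in the pooled list and 26.7 in replicate 1 and none in replicate 3. A pooled region of signal 31.3 lay 540 bp upstream of Lcp65Ad and 442 bp upstream of Cpr65Aw, and one of signal 30.5 was shared by Lcp65Ag2 and Cpr65Au. Lcp65Ag1 (28.8) and Lcp65Aa (27.4) had pooled summits and were listed in replicate 3 but not in replicate 1. Lcp65Ag3 was listed in replicate 1 only, with a signal of 16.7. Lcp65Ab1, Lcp65Ab2, Lcp65Ac and the solitary larval gene Lcp9 on 2R had no summit in any list. The densely packed genes therefore shared regions, and a count of members there is not a count of separate regions.

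Several members of the Lcp65A and Cpr65A cluster lie in repeated sequence. The share of 31-base words within 1000 bp of the TSS that occur again in the genome was 73.7% for Lcp65Ab1, 72.7% for Lcp65Ab2, 64.9% for Cpr65Ax1, 64.0% for Cpr65Ax2 and 41.3% for Lcp65Aa. Of these 5, Lcp65Aa alone had a summit, in the pooled list and in replicate 3. Over all genes with more than 30% of such words, 10.5% had a pooled summit, against 28.7% of those with 5% or less. How reads that match several places were treated is not given in the sources used here, and the part of repeats in these shares was not tested. Of the 5 members with more than 30% of such words, 1 (20%) had a pooled summit, against 30 of the 78 with 5% or less (38.5%). With the limit at more than 5%, it was 5 of 11 members (45.5%) and 22.2% of all such genes.

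Of the 4 genes of pupal cuticle, Edg78E had a region and the others had none, a share near the 28.2% of all genes in the pooled list. Edg78E had a summit in all 3 lists, with a signal of 36.8 in the pooled list, 38.2 in replicate 1 and 23.4 in replicate 3. These summits lay 861, 904 and 976 bp downstream of the TSS, near the end of the gene. Edg84A, Edg91 and Pcp had no summit within 1000 bp in any list. Edg84A lay 75254 bp from its nearest IDR summit, whereas Edg91 lay 5868 bp, Edg78E 6818 bp and Pcp 5579 bp away. Pcp lies inside an intron of Gart, a gene of purine synthesis, and the IDR summit nearest to it (signal 150) was 26 bp from the TSS of CG31908.

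Among the Cpr genes, which encode the bulk of the chitin-binding cuticle proteins, the highest pooled signal was that of Cpr47Ec (2R, 11258817 to 11259220), at 59.9, against the lowest IDR signal of 65.2. Its summit lay 957 bp downstream of the TSS, replicate 1 gave a signal of 18.7, and replicate 3 had none within 1000 bp, although a replicate 3 region overlapped the pooled one. Cpr67B, with a pooled signal of 52.2 at 51 bp downstream and 34.4 in replicate 1, also had none in replicate 3. The members with the highest and next highest pooled signals thus had a summit within 1000 bp in replicate 1 and not in replicate 3, with the region at Cpr47Ec present in both.

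Cpr35B had a region just upstream of the TSS at nearly the same place in all lists, with signals of 50.4 in the pooled list, 26.7 in replicate 1 and 20.5 in replicate 3. Its summits were 203, 203 and 214 bp upstream of the TSS, inside the window printed above. Cpr67Fa2 gave 35.0, 22.6 and 13.8, at 91, 121 and 75 bp downstream. Cpr65Ay gave 35.2, 16.0 and 20.3, at 155, 148 and 177 bp downstream. At these 3 genes the summits of all lists fell on the same side of the TSS and close together.

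The Cpr49A genes, 8 genes on 2R, held 5 members with a summit in all 3 lists, where 21.0% of all genes had one. Cpr49Ac gave signals of 51.4 in the pooled list, 46.1 in replicate 1 and 22.8 in replicate 3. These summits lay 690, 718 and 202 bp downstream of a TSS. Cpr49Ad gave 41.3, 25.6 and 25.9, at 842 and 862 bp downstream and, in replicate 3, 32 bp upstream. Cpr49Af gave 42.0, 31.3 and 16.8, at 320, 251 and 985 bp upstream. At Cpr49Ac and Cpr49Af the strongest pooled and replicate 1 regions overlapped no replicate 3 region. Those at Cpr49Ad, Cpr49Ae and Cpr49Ag did overlap a replicate 3 region. Cpr49Ag gave 43.1, 19.4 and 20.6. Cpr49Ae gave 35.1, 16.5 and 19.8, so Cpr49Ac was the highest of the 5 in the pooled list and in replicate 1, and Cpr49Ad in replicate 3. The Cpr62B genes also all had a pooled summit, with 37.5 at Cpr62Ba, 44.0 at Cpr62Bb and 27.9 at Cpr62Bc. Of these 3, only Cpr62Ba had summits in both replicates, with 29.3 in replicate 1 and 25.4 in replicate 3. Cpr78Cc gave 37.9, 16.9 and 21.6, and Cpr51A gave 33.6, 19.0 and 14.4. Cpr73D, the longest member at 18590 bp, had summits in replicates 1 (24.6) and 3 (18.9) but none in the pooled list. These lay at different TSSs of the gene, at 16956832 in replicate 1 and 16942248 in replicate 3, and did not overlap. The replicate 1 summit was nearer to the TSS of Ogdh (607 bp) than to that of Cpr73D (857 bp).

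**Figure D3:**
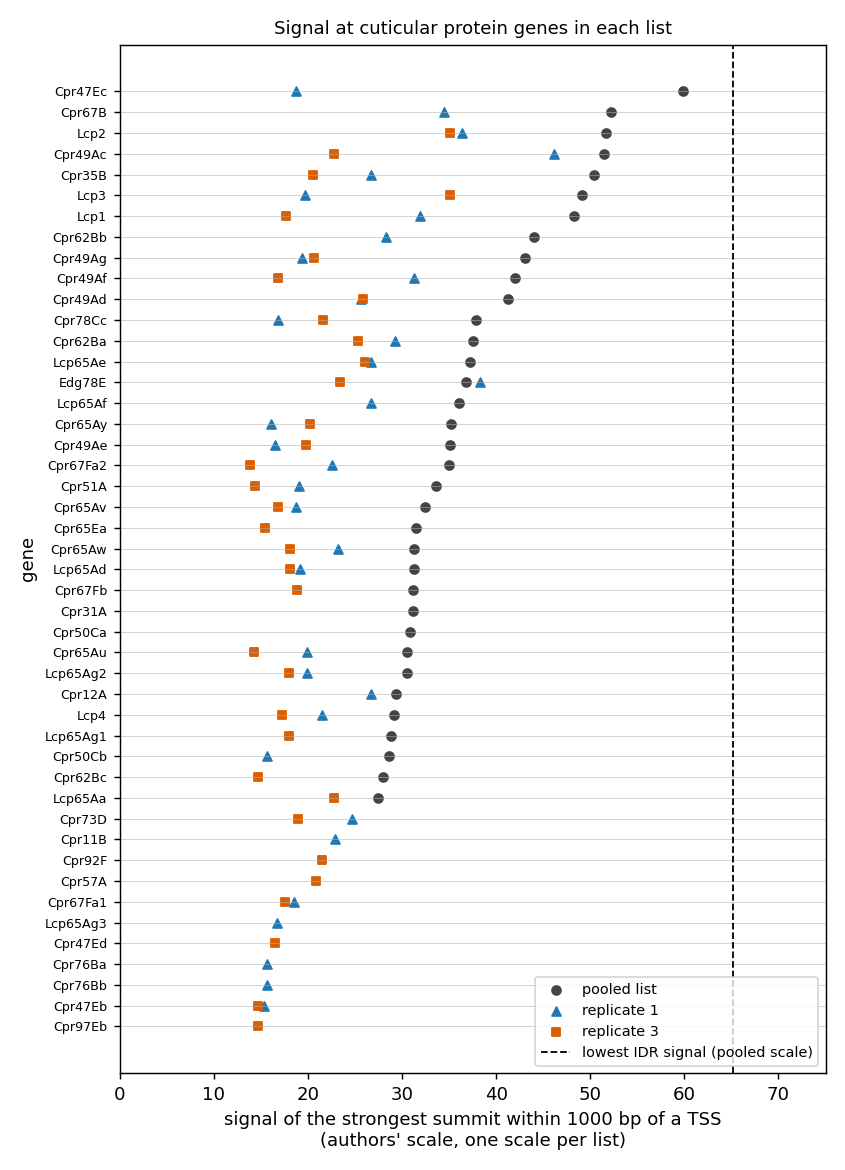
Signal of the strongest summit within 1000 bp of a TSS (horizontal axis, authors' scale, a separate scale for each list) for the 46 members with a summit in the pooled list (circles), replicate 1 (triangles) or replicate 3 (squares). All 35 pooled values lie left of the dashed line, the lowest pooled signal in the IDR list (65.2), and run from 27.4 to 59.9.

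Replicates listed the same members about as often as the same genes overall. Of the 35 members in replicate 1, 25 (71.4%) were also in replicate 3, and of the 34 in replicate 3, 25 (73.5%) were in replicate 1, against 72.5% and 76.1% over all genes. The strongest region in replicate 1 overlapped a replicate 3 region for 20 of 35 members (57.1%), against 59.9% of all genes. Over the 25 members in both, Spearman's rho of the signals was 0.37, and over the 3167 genes in both it was 0.66. These are descriptions: the members span a narrow range of signal, neighbours share regions, and both replicates were called against the same control. Of the 35 pooled members 22 (62.9%) were in both replicates, a lower share than the 2929 of the 3939 genes with a pooled summit. Another 6 were in replicate 1 only, 5 in replicate 3 only, and Cpr31A and Cpr50Ca in neither. Shares over all genes were not computed for these last counts. A further 11 members were in a replicate list but not in the pooled list, which gave 46 members in any of the 3 lists. Over all genes 5465 were in any of the 3 lists and 3939 in the pooled list.

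The members lie in clusters, and regions were unevenly spread over these. With gaps of at most 15000 bp, 64 members fell into 13 clusters of 2 or more, and 25 stood alone. In the pooled list 30 of the 64 clustered members (46.9%) had a summit, and 5 of the 25 others (20%), beside 28.2% of all genes. The Lcp1 to Lcp4 cluster, with 1000 bp on either side, had 7.71 pooled summits per 10 kb, against a mean of 2.24 over the arms, and 6.74 in each replicate. The Cpr67F cluster had 5.97 in the pooled list and 7.46 in each replicate. The Cpr49A cluster had 5.43 in the pooled list, 5.67 in replicate 1 and 5.43 in replicate 3. The Cpr62B cluster had 5.51, 4.01 and 6.51, and the Lcp65A and Cpr65A cluster of 17 genes had 3.92, 3.31 and 4.22. These 5 clusters were above the arms' mean in all 3 lists.

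The other 8 clusters were not above the arms' mean in all 3 lists. The Cpr65E cluster had 3.05 pooled summits per 10 kb, none in replicate 1 and 2.03 in replicate 3, and the Cpr78C cluster with Edg78E had 1.77 in the pooled list and 2.65 in each replicate. The 7 Cpr47E genes had 0.70 pooled summits per 10 kb, 1.05 in replicate 1 and 1.39 in replicate 3. The 4 Cpr64A genes, which lie inside CG43367, and the 3 Cpr72E genes had no summit in any of the 3 lists. By arm, 13 of 26 members on 2R had a pooled summit, 19 of 46 on 3L, 2 of 6 on 2L, 1 of 4 on X and 0 of 7 on 3R, where replicate 3 listed 2 of the 7. The share was 28.2% for all genes on the arms together, and it was not computed for each arm, so no arm difference is read from these small counts. The highest and lowest densities were thus found among clusters of the same gene family.

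**Figure D4:**
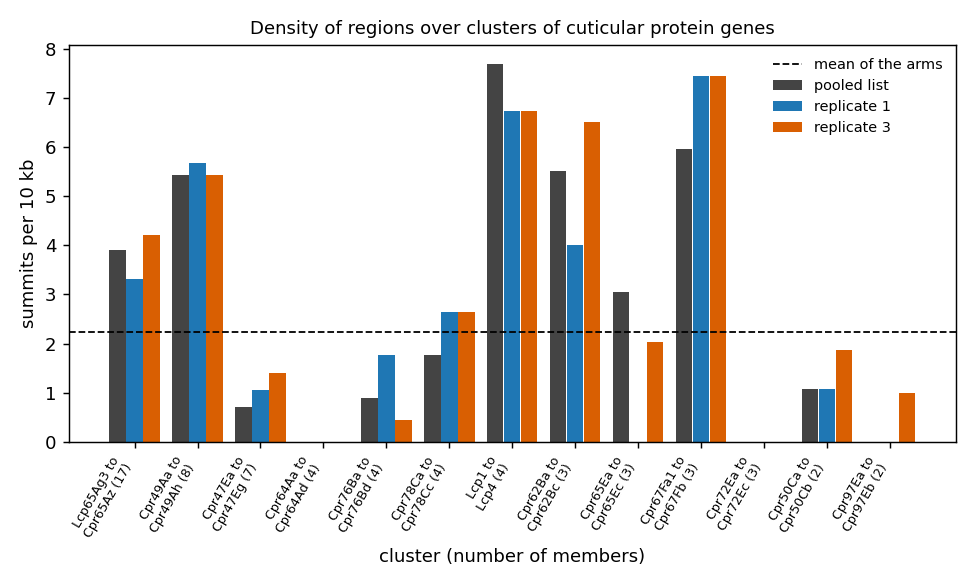
Summits per 10 kb (vertical axis) over the 13 clusters of cuticular protein genes, each with 1000 bp added on either side, in the pooled list (dark), replicate 1 (blue) and replicate 3 (orange), with the number of members in brackets. The dashed line is the mean of the arms (2.24), and the Lcp1 to Lcp4 cluster reaches 7.71 in the pooled list while the Cpr64A and Cpr72E clusters are at 0.

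IDR regions lay in the neighbourhood of some members, though not at their promoters. The closest was 1283 bp from Cpr97Eb on 3R (summit 27092413, signal 113), with the TSS of CG14258 nearer, at 730 bp. Replicates 1 and 3 held this region at ranks 1698 and 474. Inside the Cpr49A cluster lay 2 IDR summits, both intergenic. The first (2R, 12385025, signal 93.9) was 1641 bp from a TSS of Cpr49Ac and 1133 bp from that of CG8501, and had ranks of 1453 in replicate 1 and 1191 in replicate 3. The other (2R, 12390142, signal 65.7) lay 1557 bp from the TSS of Cpr49Ad, the nearest of any gene, with ranks of 11418 and 1254. The replicates thus both placed the first among their stronger regions and differed over the other.

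Over all members the median distance to the nearest IDR summit was 36188 bp, against 28412 bp for all genes. It was 2000 bp or less for 3 members (3.37%), against 10.01% of all genes, and 10000 bp or less for 20 (22.5%), against 23.9%. A strong IDR region (2L, summit 10057421, signal 267) in an intron of Pen lay 3208 bp from Cpr31A, at rank 120 in replicate 3 and with no overlapping region in replicate 1. The members' share was thus below that of all genes at 2000 bp and close to it at 10000 bp.

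Promoter letters were counted in the same 300-base windows for all genes, at the outermost TSS and on both strands unless stated. TATAAA, the core of the TATA box, occurred in 65 of 89 members (73.0%), against 45.8% of all promoters. Starting 20 to 45 bp before the TSS on the sense strand, where a TATA box works, it occurred in 54 members (60.7%), against 8.81% of all promoters. It stood there in 26 of the 46 members with a region in any of the 3 lists and in 28 of the 43 without. The letters were thus present in most members of either kind.

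Letters bound by nuclear receptors, Methoprene-tolerant or GAGA factor occurred at shares near those of all promoters, and the DRE and GATA letters at lower shares. AGGTCA, the core letters of many nuclear receptor sites, occurred in 4 members (4.49%) against 5.88% of all promoters. AAGGTCA, which contains AGGTCA, occurred in 1 member, Edg84A (1.12%), against 2.11%. CACGCG, the core of the E-box bound with Methoprene-tolerant, occurred in 7 members (7.87%) against 6.12%. GAGAG, bound by GAGA factor, occurred in 28 (31.5%) against 29.7%. TATCGATA, the DRE of many housekeeping promoters, occurred in 1 member, Cpr49Af (1.12%), against 9.36%. The GATA letters TGATAG occurred in 3 members (3.37%) against 9.94%, and AGATAA in 7 (7.87%) against 18.7%. The median GC content of the windows was 44% for members and 38% for all genes, and its part in these shares was not tested.

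**Figure D5:**
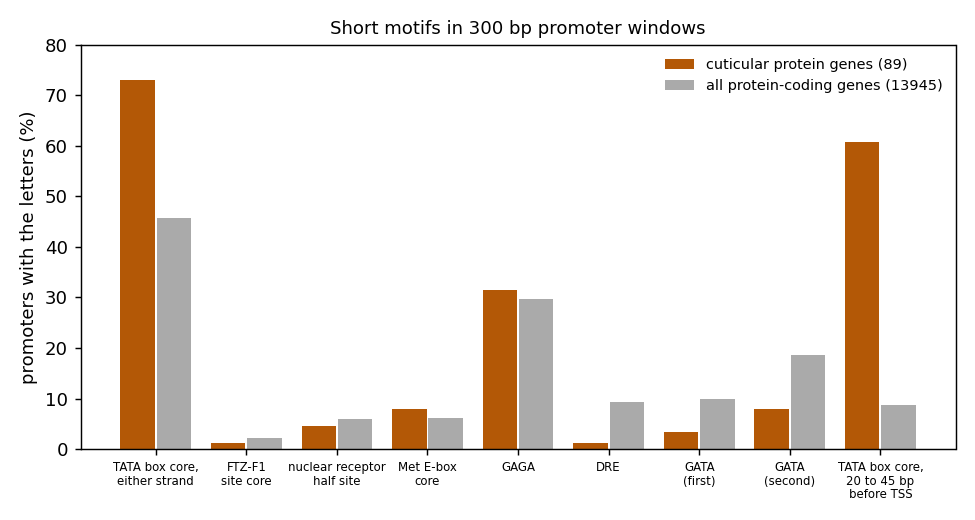
Share of promoters (%, vertical axis) holding each set of letters in the 300 bases from 250 before to 50 after the TSS, for the 89 cuticular protein genes (orange) and all 13945 protein-coding genes (grey). The last pair counts TATAAA on the sense strand starting 20 to 45 bp before the TSS, at 60.7% and 8.81%.

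Other genes of cuticle formation, in lists of structural genes, chitin genes and regulators, are given beside the members. These lists were set by name and role with earlier results of these data known. Of 51 other structural cuticle genes (among them the Ccp84A, Twdl and obst genes), 1 had an IDR summit, tyn, a zona pellucida domain gene (signal 87.3). Of these 51, 13 (25.5%) had a pooled summit, with the next highest signals at TwdlG (63.0), obst-E (52.7) and obst-B (39.6). Their share in the pooled list was near that of all genes.

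Of 25 chitin genes, 3 (12%) had an IDR summit and 13 (52%) a pooled one, beside 7.91% and 28.2% of all genes. The list included the Idgf genes, several of them among the 13. Its median gene length was 4288 bp against 2166 bp for all genes, and the part of length was not tested. The IDR regions were at Cht7, a chitinase gene (signal 110), knk, which protects and organises new chitin (69.2), and Gfat1, the first enzyme of the path to the chitin precursor (65.6). Cht10, another chitinase gene, followed with 54.6, below the IDR list.

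Of 15 regulators of cuticle genes, 7 (46.7%) had an IDR summit and 12 (80%) a pooled one, beside the same 7.91% and 28.2%. The IDR summit counted for Hr3 lay 550 bp from its TSS and 90 bp from that of Hdc. The highest signals were at the ecdysone-induced genes Eip75B (149) and Eip74EF (123), at grh, the epidermal factor Grainy head (115), and at the nuclear receptor gene Hr39 (108). Eip75B was held with signals of 80.4 in replicate 1 and 71.8 in replicate 3, and grh with 76.9 and 47.5. These regulators are long genes, with a median of 33354 bp and 3 TSSs against 875 bp and 1 TSS for the members. A gene with more TSSs has more sequence in which a summit is counted, and the part of this in the difference was not tested.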

How the data were processed

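Per the records deposited with the files, the authors' lists hold peaks and background regions, called for each replicate and for the pooled replicates against 1 shared control alignment. The IDR list was made from these 3 lists. Which aligner and peak caller were run, and how, is not given in the sources used here. Each region's deposited signal was computed by the authors against the control, and its scale is not stated. The deposited summit offset, a position in bases, was added to each region's start. Depth is unknown, so intervals (95%, Clopper-Pearson) cover the counting of genes only, and they treat genes as independent.

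Genes and TSSs came from Ensembl release 115 (BDGP6.54), coordinates are 1-based on dm6, and windows of 1000 bp were used with Python 3.11.15 (scipy 1.17.1, pandas 2.3.3, numpy 2.4.6, matplotlib 3.10.9). With 1 group there was no test. The members and lists were chosen with earlier results of these data known. Named are the 20 members of highest pooled signal, the 10 best in both replicates, every Lcp, Pcp and Edg gene and up to 4 genes of each list. Other members, Cpr31A, Cpr50Ca, Cpr97Eb and Cpr62Bc among them, and the regulator Hr3 were named after their values were seen. nag and Hr46 were not matched in the annotation.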

Additional observations from a re-analysis of the deposited data

How the results depend on the processing

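Of 44 recounts, 30 stayed within 1.5 times the reported count and 14 did not. From the reported 0 of the IDR list, stricter settings could only give 0 again. Without the recounts of the IDR list, 24 of 34 stayed and 10 did not. With a limit of 500 bp, the counts were 16 in the pooled list, 16 in replicate 1, 17 in replicate 3 and 10 in both replicates, each below the share of all genes. With 2000 bp, 3 members had an IDR summit (3.37%, against 10.01% of all genes) and 40 had one in both replicates (44.9%, against 30.5%). Counting summits in the gene or within 1000 bp of either end gave 2 members in the IDR list, Cpr49Ac and Cpr49Ad (2.25%, against 11.6%). Both were counted through the same summit (2R, 12390142, signal 65.7), which lies between the ends of the 2 genes. The same setting gave 38 members in both replicates (42.7%, against 32.3%). Among regions above the median signal of each list, the counts were 19 in the pooled list, 17 in replicate 1, 17 in replicate 3 and 8 in both, with shares below those of all genes except in the pooled list. These alternatives admit more or fewer summits by construction, and the cause of the members' shifts relative to all genes was not tested. Without replicate 1 or replicate 3, the strongest 2567 regions of the other gave 1 to 2 members in place of 0 in the IDR list, and 34 to 35 in place of 35 in the pooled list. Leaving out the 11 members with over 5% repeated 31-base words, a choice made after seeing the data, gave 0 in the IDR list, 30 in the pooled list and 22 in both replicates. No paired analysis was possible because there was 1 group only. Unknown depth and an unstated signal scale limit what the absence of a region can show.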
